A study of Homo sapiens with 12 samples.

Results

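The genes described here are 10 regulators of the step from G1 into S phase of the cell cycle, measured as RNA in a human beta-cell line: cyclin D3 (CCND3), its partner kinases CDK4 and CDK6, cyclin E1 (CCNE1) and its partner CDK2, the inhibitors CDKN2B and CDKN2C of the INK4 family and CDKN1A and CDKN1B of the CIP/KIP family, and the retinoblastoma gene RB1. They were chosen by name and looked up by Entrez Gene number, 10 of the 21508 gene identifiers in the 12 libraries, and all 10 were listed in every library. EndoC-βH1 is an established insulin-producing line made from human fetal pancreas with SV40 large T antigen, a viral protein that binds the RB1 protein and its relatives. The 4 groups of 3 libraries were TUNAR siRNAs with 1-AKP, negative control siRNA with 1-AKP, TUNAR siRNAs with DMSO, and negative control siRNA with DMSO. TUNAR is a long noncoding RNA and 1-AKP an inhibitor of the kinase GSK3. All cells had a lipid transfection with one or the other siRNA, and 2 days later received 1-AKP at 5 µM or its solvent DMSO at a dilution of 1:1000 for 24 hours. Cells of passage 74 gave replicates 1 and 2 in every group, and cells of passage 75 gave replicate 3. The labels say nothing more on how far the cultures were separate, so a p-value here covers the spread among these libraries, which may be technical.

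D-type cyclins bind CDK4 or CDK6, and cyclin E binds CDK2; both kinds of kinase phosphorylate RB1 and so release E2F transcription factors, which switch on genes for DNA replication. INK4 proteins block CDK4 and CDK6, while CIP/KIP proteins block CDK2 and can also help to assemble cyclin D with CDK4. Beta cells of adults rarely divide, and CDK4 with D-type cyclins is known from mice to be needed for their postnatal growth. GSK3 phosphorylates beta-catenin, the effector of Wnt signalling, and cyclin D1, marking both proteins for degradation; only RNA was measured here.

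The libraries held between 15653786 and 15986834 expected counts, the estimated and not always whole read counts of the deposited files. Levels below are CPM, counts scaled to a common library size with TMM, unless called FPKM, which is also scaled by gene length. TUNAR stood between 6.95 and 13.6 CPM with TUNAR siRNAs and between 27.9 and 31.0 CPM with negative siRNA under 1-AKP, and between 3.83 and 8.09 CPM with TUNAR siRNAs and between 14.4 and 19.9 CPM with negative siRNA in DMSO. The targeted RNA thus lay lower in every library with its siRNAs. The replicate 1 libraries stood apart in all 4 groups: 41.5% of the 15990 genes tested differed between replicate 1 and replicates 2 and 3. Results are therefore also given for replicates 2 and 3 alone, a choice made after seeing the data. Insulin (INS) lay between 9207 and 12851 CPM, all 15 beta-cell markers of the list were detected, and glucagon (GCG) stayed at or below 0.444 CPM. In bulk RNA, fewer cells of a kind and less RNA per cell cannot be told apart.

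Promoter sequences are shown for CDK4, CDKN2B and CDKN1A, 3 of the members that moved with 1-AKP or with the replicate number. Others that moved, CCND3 and CDKN2C among them, are not shown. RefSeq windows of build GRCh38.p14 were found for 9 of the 10 genes, and none for CDK2; the submitters' processing notes name an older build for the counts. Each line gives the 250 bases before the transcript start, 5′ to 3′ on the gene's strand. Capitals mark GC boxes (GGGCGG on either strand) and E-boxes (CACGTG), the letters that SP1-type factors and MYC-type factors are known to bind. CDK4 lies on the minus strand at chr12:57752311-57752560, CDKN2B on the minus strand at chr9:22009306-22009555 and CDKN1A on the plus strand at chr6:36678464-36678713.
CDK4: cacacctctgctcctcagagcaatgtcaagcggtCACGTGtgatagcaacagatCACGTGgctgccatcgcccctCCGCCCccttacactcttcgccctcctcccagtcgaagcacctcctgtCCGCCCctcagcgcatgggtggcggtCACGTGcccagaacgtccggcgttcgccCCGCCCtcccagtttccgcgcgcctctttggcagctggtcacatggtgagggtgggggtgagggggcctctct
CDKN2B: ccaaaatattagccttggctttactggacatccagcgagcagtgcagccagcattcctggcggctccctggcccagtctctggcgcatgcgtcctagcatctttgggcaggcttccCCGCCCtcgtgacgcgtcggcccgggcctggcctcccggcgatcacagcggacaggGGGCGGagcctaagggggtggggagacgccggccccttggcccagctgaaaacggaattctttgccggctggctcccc
CDKN1A: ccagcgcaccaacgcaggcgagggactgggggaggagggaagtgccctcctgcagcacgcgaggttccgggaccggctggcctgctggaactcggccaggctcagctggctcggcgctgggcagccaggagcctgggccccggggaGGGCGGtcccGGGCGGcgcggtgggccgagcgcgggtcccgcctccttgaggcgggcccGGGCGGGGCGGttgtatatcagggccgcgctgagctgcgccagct
The CDK4 window held 3 E-boxes and 3 GC boxes, the CDKN2B window 2 GC boxes and the CDKN1A window 4 GC boxes. The CCND3 windows, not shown, held 5, 2 and 0 GC boxes and no E-box. Among the 9 genes only CDK4 and CDKN2C had an E-box. An E-box was present in 6.34% of the 35116 promoter windows of this length in the table, and 3 or more in 0.0797% of them; a GC box was present in 42.6%. No window of the 9 genes held the TCF/LEF core CTTTGAT or the E2F letters TTTCCCGC or TTTGGCGC on either strand, which 2.26% and 1.93% of all windows did. The only RB1 window lay at chr13:48476200-48476449, with 36.8% GC and no GC box. Whether it covers the main RB1 start was not tested, and other RB1 starts were not searched. The absence of GC boxes and E2F letters there therefore describes that window alone and cannot be taken for the main RB1 promoter. These are matches of letters in a short window and say nothing of binding.

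Per unit of length, the members spanned a wide range of levels. CDKN2C, which encodes the INK4 inhibitor p18, was the highest in all 4 groups, at 174 ± 15.1 FPKM with TUNAR siRNAs and 1-AKP, 165 ± 16.1 with negative siRNA and 1-AKP, 160.1 ± 13.0 with TUNAR siRNAs and DMSO, and 152 ± 13.3 with negative siRNA and DMSO (mean ± SD, n = 3 each). CDK4 came next, at 99.9 ± 6.54, 98.4 ± 7.90, 81.3 ± 3.89 and 83.0 ± 8.19 FPKM in the same groups. CDK6, the other kinase that D-type cyclins activate, was the lowest, at 0.66 ± 0.08, 0.71 ± 0.04, 0.51 ± 0.12 and 0.59 ± 0.02 FPKM. CCND3 was the abundant D-type cyclin of these cells: it lay between 34.2 and 43.1 FPKM, whereas CCND1 did not pass the filter on low counts and stayed between 0 and 0.187 CPM, and CCND2 was not listed in any library and was taken as 0.

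In negative siRNA with DMSO the order ran CDKN2C, CDK4, RB1 (44.4 ± 2.38 FPKM), CCND3 (37.1 ± 0.63), CDK2 (35.1 ± 2.31), CDKN1B (20.1 ± 0.93), CCNE1 (13.1 ± 0.46), CDKN2B (8.99 ± 0.31), CDKN1A (5.23 ± 2.38) and CDK6. In that group only the neighbours CCND3 and CDK2 overlapped. CDKN1A had the widest spread between replicates of the members, with a coefficient of variation of 45.1% in CPM in that group, and its single libraries reached from 3.73 to 7.98 FPKM. With TUNAR siRNAs and 1-AKP, CDKN1A at 7.05 ± 2.85 FPKM overlapped both CCNE1 and CDKN2B. Among CDK4, RB1, CCND3, CDK2, CCNE1 and CDK6 the order of the means was the same in all 4 groups, except that CCND3 stood above RB1 with negative siRNA and 1-AKP; these neighbours overlapped in both 1-AKP groups.

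**Figure D1:**
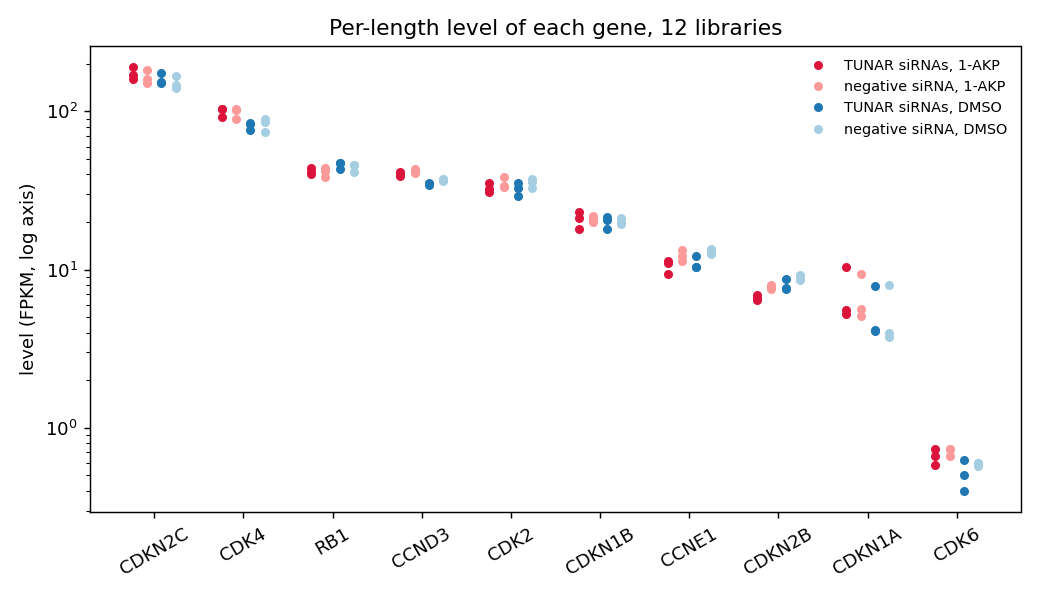
Level of each of the 10 genes per unit of length in the 12 libraries (FPKM, log axis), coloured by group, with the genes in order of their mean. CDKN2C and CDK4 lie highest, CDK6 lowest, and CDKN1A shows 1 high library in each group.

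With the GSK3 inhibitor, cyclin D3 RNA was higher with either siRNA. CDK4 rose and CDKN2B, which encodes the INK4 inhibitor p15, fell with TUNAR siRNAs. With negative siRNA both differed in the same direction, at 0.27 and -0.19 on the log2 scale, and did not pass. Neither response differed detectably between the siRNAs (difference of differences 0.05 for CDK4 and -0.07 for CDKN2B, edgeR unadjusted p = 0.699 and 0.483). With TUNAR siRNAs, 2 of the 10 members rose with 1-AKP (CCND3 and CDK4) and 1 fell (CDKN2B), by edgeR's quasi-likelihood test with Benjamini-Hochberg adjustment over all genes; 7.51% of all genes tested were called in that comparison. With negative siRNA, 1 member rose (CCND3) and none fell, where 7.3% of all genes tested were called, 566 risen and 602 fallen (414 and 702 when scaled by library size alone). In replicates 2 and 3 alone, 4 members rose and 2 fell with TUNAR siRNAs, against 17.3% of genes called, and 4 rose and 1 fell with negative siRNA, against 16.0% of genes called. The median member differed by 0.11 on the log2 scale in both comparisons, where the median of all genes lay at -0.00074 with TUNAR siRNAs and -0.0035 with negative siRNA.

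CCND3 encodes the D-type cyclin that binds CDK4 and CDK6. It stood at 86.7, 86.2 and 82.0 CPM in replicates 1, 2 and 3 with TUNAR siRNAs and 1-AKP, against 72.3, 71.5 and 73.9 CPM with TUNAR siRNAs and DMSO. With negative siRNA it stood at 89.8, 90.9 and 86.6 CPM under 1-AKP and at 76.8, 75.9 and 78.2 CPM in DMSO. All 6 libraries with 1-AKP lay above all 6 with DMSO, whichever the siRNA. The log2 fold change was 0.23 with TUNAR siRNAs (SE 0.04, edgeR adjusted p = 0.00914) and 0.21 with negative siRNA (SE 0.04, edgeR adjusted p = 0.0133). The difference was of like size without replicate 1, since replicates 2 and 3 alone gave 0.21 (adjusted p = 0.00852) and 0.20 (adjusted p = 0.0106). The call with negative siRNA ended without replicate 2 of negative siRNA with 1-AKP (adjusted p = 0.0654) and without replicate 2 of negative siRNA with DMSO (adjusted p = 0.0614).

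CDK4 encodes the more abundant, in FPKM, of the pair of kinases that D-type cyclins activate. With TUNAR siRNAs it reached 187, 210.2 and 211 CPM under 1-AKP, against 153, 167 and 169 CPM in DMSO. With negative siRNA it reached 181, 207 and 211 CPM under 1-AKP, against 146, 172 and 178 CPM in DMSO. The groups did not overlap in either case, and the replicate 1 library was the lowest of each group. CDK4 rose by 0.31 on the log2 scale with TUNAR siRNAs (SE 0.08, edgeR adjusted p = 0.0367), while its difference of 0.27 with negative siRNA did not pass (SE 0.08, adjusted p = 0.0718). In replicates 2 and 3 alone both were called, at 0.32 with TUNAR siRNAs (adjusted p = 7.63e-06) and 0.25 with negative siRNA (adjusted p = 0.000174); with negative siRNA CDK4 was also called without replicate 1 of negative siRNA with 1-AKP (adjusted p = 0.0302). The call with TUNAR siRNAs ended in 7 of the 12 fits that left out 1 library, with adjusted p up to 0.127: it held only without replicate 1 of the 3 groups other than TUNAR siRNAs with DMSO, or without replicate 3 of either negative siRNA group. It also ended with limma on log2(FPKM + 0.1), at an adjusted p of 0.0653. CDK4 shares 1369 exonic bases with TSPAN31 on the opposite strand in GENCODE 29, and strand use in the counting is not given in the sources used here, so reads of the pair cannot be told apart there. TSPAN31, at 24.4 to 31.1 CPM, was called in none of the 7 comparisons. CDK2 also shares exonic bases with genes on the opposite strand, 565 with AC025162.1 and 89 with PMEL. The same holds for CDKN1A (146 with DINOL), CDK6 (81 with AC002454.1) and CCND3 (24 with AL513008.1).

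CDK6, at 4.76 to 8.83 CPM, held few reads. With TUNAR siRNAs it stood at 7.79, 6.84 and 8.82 CPM under 1-AKP and at 5.78, 4.76 and 7.40 CPM in DMSO. With negative siRNA the values were 8.60, 8.83 and 7.89 CPM under 1-AKP and 6.56, 7.03 and 7.01 CPM in DMSO. The 1-AKP library was the higher in each replicate number of both siRNAs. Neither difference passed in the fit of group means: 0.39 with TUNAR siRNAs (SE 0.15, edgeR adjusted p = 0.154) and 0.30 with negative siRNA (SE 0.15, adjusted p = 0.282). In replicates 2 and 3 alone they were 0.37 (adjusted p = 0.194) and 0.25 (adjusted p = 0.399), neither called. With replicate number as a block CDK6 was called with TUNAR siRNAs (0.39, adjusted p = 0.0213) and not with negative siRNA (adjusted p = 0.0707).

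CDKN2B encodes p15, an inhibitor that TGF-beta is known to induce. It stood at 27.4, 25.3 and 26.1 CPM with TUNAR siRNAs and 1-AKP, against 30.2, 29.9 and 34.2 CPM with TUNAR siRNAs and DMSO. With negative siRNA the values were 31.2, 29.9 and 30.9 CPM under 1-AKP and 33.5, 35.4 and 35.9 CPM in DMSO. The 1-AKP libraries lay below the DMSO libraries of the same siRNA without overlap. CDKN2B fell by 0.26 on the log2 scale with TUNAR siRNAs (SE 0.07, edgeR adjusted p = 0.0383), and its difference of -0.19 with negative siRNA did not pass (SE 0.07, adjusted p = 0.12). In replicates 2 and 3 alone the differences were -0.31 (adjusted p = 0.00752) and -0.23 (adjusted p = 0.0423), both called. The call with TUNAR siRNAs ended in 9 of the 12 fits that left out 1 library, with adjusted p up to 0.137, and held only without replicate 1 of a group other than TUNAR siRNAs with DMSO; with no filter on low counts the adjusted p was 0.053.

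The other inhibitors differed in how far replicate 1 stood from the rest. CDKN1A encodes p21, an inhibitor known as a target of p53. It stood at 22.7, 11.5 and 12.2 CPM in replicates 1, 2 and 3 with TUNAR siRNAs and 1-AKP, against 17.0, 8.89 and 9.03 CPM with TUNAR siRNAs and DMSO. With negative siRNA it stood at 20.4, 11.2 and 12.3 CPM under 1-AKP and at 17.1, 8.59 and 8.08 CPM in DMSO. Within each replicate number the 1-AKP library was the higher, by 0.41, 0.37 and 0.43 with TUNAR siRNAs and by 0.25, 0.39 and 0.60 with negative siRNA on the log2 scale, yet the groups overlapped through replicate 1. With all 3 replicates the log2 differences of 0.41 (SE 0.40, edgeR adjusted p = 0.64) and 0.38 (SE 0.40, adjusted p = 0.679) did not pass. In replicates 2 and 3 alone CDKN1A rose, by 0.40 with TUNAR siRNAs (SE 0.12, adjusted p = 0.0219) and by 0.49 with negative siRNA (SE 0.12, adjusted p = 0.00651). A fit of all 12 libraries with replicate number as a block also called it risen, by 0.41 with TUNAR siRNAs (SE 0.09, adjusted p = 0.000369) and by 0.39 with negative siRNA (SE 0.09, adjusted p = 0.000757), though same-numbered libraries did not meet the pairing rule in these comparisons.

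CDKN2C stood at 393, 332 and 346 CPM with TUNAR siRNAs and 1-AKP, against 352, 307 and 306 CPM with TUNAR siRNAs and DMSO, and at 377, 312 and 329 CPM with negative siRNA and 1-AKP, against 336, 284 and 298 CPM with negative siRNA and DMSO. It showed the same picture on a smaller scale: 0.15 in both comparisons with all replicates (SE 0.09, adjusted p = 0.384 with TUNAR siRNAs and 0.399 with negative siRNA), and in replicates 2 and 3 alone a rise of 0.15 (adjusted p = 0.0178) with TUNAR siRNAs and of 0.14 (adjusted p = 0.0261) with negative siRNA. CDKN1B, which encodes p27, stood between 46.1 and 59.3 CPM under 1-AKP and between 46.0 and 54.8 CPM in DMSO with TUNAR siRNAs, and between 51.0 and 55.2 CPM under 1-AKP and between 48.6 and 52.8 CPM in DMSO with negative siRNA. Its differences of 0.07 in both comparisons did not pass (SE 0.09 each, adjusted p = 0.736 and 0.728).

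CCNE1, CDK2 and RB1 were not called in the fit of group means with all replicates. CCNE1 stood at 19.1, 23.2 and 22.4 CPM under 1-AKP and at 20.8, 24.4 and 21.1 CPM in DMSO with TUNAR siRNAs, a difference of -0.03 (SE 0.10, edgeR adjusted p = 0.894), and differed by -0.07 with negative siRNA (SE 0.09, adjusted p = 0.742). CDK2 differed by 0.03 in both comparisons (SE 0.09, adjusted p = 0.897 and 0.91). RB1 stood at 194, 201 and 211 CPM with TUNAR siRNAs and 1-AKP, against 207, 226 and 228 CPM with TUNAR siRNAs and DMSO, and at 186, 203 and 212 CPM with negative siRNA and 1-AKP, against 197, 217 and 219.5 CPM with negative siRNA and DMSO. In every replicate number the 1-AKP library held less RB1. The log2 difference was -0.12 with TUNAR siRNAs (SE 0.06, adjusted p = 0.268) and -0.08 with negative siRNA (SE 0.06, adjusted p = 0.539); in replicates 2 and 3 alone RB1 fell by 0.14 with TUNAR siRNAs (SE 0.04, adjusted p = 0.0265) and was at -0.08 with negative siRNA (SE 0.04, adjusted p = 0.267). A fit with replicate number as a block called RB1 with TUNAR siRNAs, at -0.12 (adjusted p = 0.00225), and not with negative siRNA (adjusted p = 0.0603). The SEs of the fit of group means leave room for small changes in CCNE1 and CDK2. A p above the threshold therefore does not show that these genes stayed the same.

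Within passage 74 alone (2 libraries a group), no member was called in either 1-AKP comparison by edgeR, where 67 of 16038 genes were called with TUNAR siRNAs and 51 with negative siRNA. CCND3 then differed by 0.26 (adjusted p = 0.135) with TUNAR siRNAs and 0.25 (adjusted p = 0.156) with negative siRNA, CDK4 by 0.31 (adjusted p = 0.281) with TUNAR siRNAs, and CDKN2B by -0.19 (adjusted p = 0.425) with TUNAR siRNAs. Passage 75 held 1 library a group and allows no test; there CCND3 differed by 0.15 with either siRNA, CDK4 by 0.32 with TUNAR siRNAs and by 0.24 with negative siRNA, and CDKN2B by -0.39 with TUNAR siRNAs and by -0.22 with negative siRNA.

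**Figure D2:**
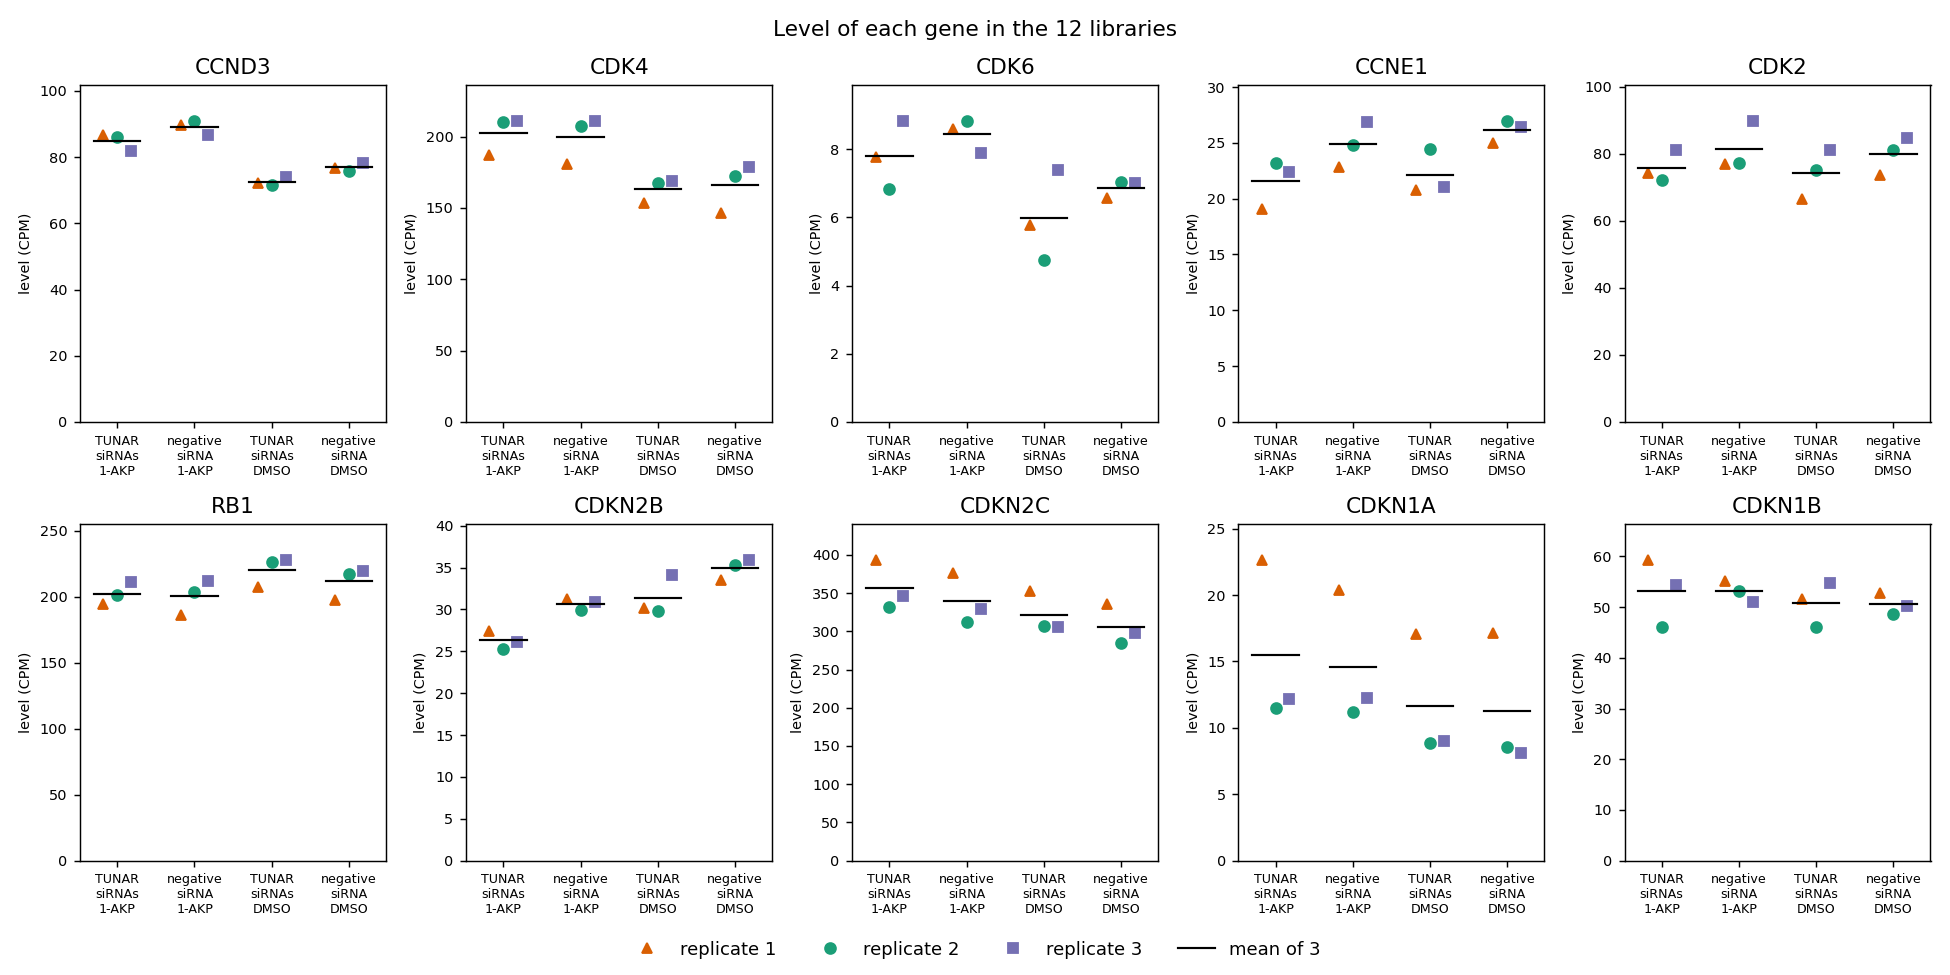
Level of each gene (CPM, axis from 0) in every library, by group, with symbols for replicate numbers and a bar for the mean of 3. The 1-AKP libraries lie above the DMSO libraries for CCND3 and CDK4 and below them for CDKN2B within each siRNA, and replicate 1 lies highest for CDKN1A and CDKN2C in all 4 groups.

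**Figure D3:**
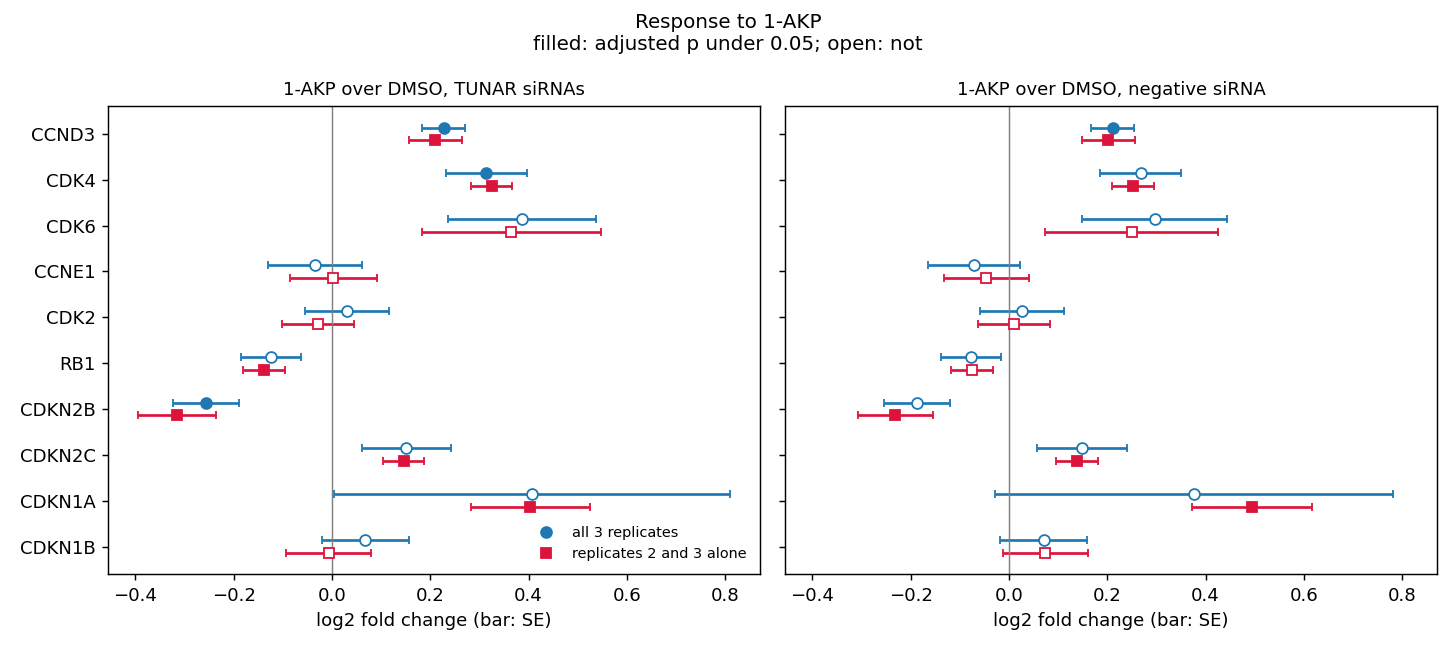
Log2 fold change of 1-AKP over DMSO with its SE, with TUNAR siRNAs (left) and negative siRNA (right), from all 3 replicates (circles) and from replicates 2 and 3 alone (squares). CCND3 is called in all 4 cases, and CDKN1A, at 0.38 to 0.49, of the fits shown only in replicates 2 and 3 alone.

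The genes around these 10 were described from lists of related genes. Among RB1's relatives and partners, of 12 pocket proteins, E2F and DP factors, none rose and 2 fell with TUNAR siRNAs (TFDP2 and RBL2) and 3 fell with negative siRNA (TFDP2, RBL2 and E2F2). TFDP2 encodes a DP protein that pairs with E2F factors; it stood at 51.9, 52.3 and 49.9 CPM with TUNAR siRNAs and 1-AKP, against 81.5, 81.8 and 85.7 CPM with TUNAR siRNAs and DMSO, and at 54.7, 54.1 and 54.2 CPM with negative siRNA and 1-AKP, against 85.6, 77.4 and 80.1 CPM with negative siRNA and DMSO. It fell by 0.69 with TUNAR siRNAs (edgeR adjusted p = 2.22e-05) and by 0.58 with negative siRNA (adjusted p = 7.58e-05). RBL2 encodes p130, the pocket protein of resting cells; it fell by 0.32 (adjusted p = 0.0184) with TUNAR siRNAs and by 0.29 (adjusted p = 0.0292) with negative siRNA, and E2F2, an activating E2F, fell by 0.25 (adjusted p = 0.0322) with negative siRNA. The RBL2 call ended in 4 of 12 fits that left out 1 library in each comparison, those without replicate 1 or 2 of TUNAR siRNAs with DMSO or replicate 2 or 3 of TUNAR siRNAs with 1-AKP (adjusted p up to 0.089) and those without replicate 1 or 2 of negative siRNA with DMSO or replicate 2 or 3 of negative siRNA with 1-AKP (up to 0.126). The E2F2 call ended in 5, without any replicate of negative siRNA with DMSO or without replicate 2 or 3 of negative siRNA with 1-AKP (up to 0.14). Of these calls those of TFDP2 held within passage 74 alone, and those of RBL2 (adjusted p = 0.147 and 0.181) and E2F2 (0.356) did not.

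Of the 20 E2F target genes of DNA replication, none was called with TUNAR siRNAs. The median of that list was 0.08 in both comparisons. Of the 11 tested genes among the other 13 G1 cyclins, kinases and inhibitors, and of the 20 mitosis genes, none was called in either comparison in the fit of group means. Of the 16 genes of CDK activation and turnover, 1 fell with TUNAR siRNAs, WEE1, a kinase that restrains CDK1 and CDK2 (-0.22, adjusted p = 0.0372, a call that held only without replicate 1 or 2 of negative siRNA with DMSO or replicate 1 of negative siRNA with 1-AKP among the fits that left out 1 library, with adjusted p up to 0.12), and none was called with negative siRNA. Of the 17 tested p53 target genes, 1 fell in both comparisons: SESN1, which encodes sestrin 1, at -0.27 with TUNAR siRNAs (adjusted p = 0.016, and up to 0.0672 without any replicate of TUNAR siRNAs with DMSO or without replicate 2 or 3 of TUNAR siRNAs with 1-AKP) and -0.32 with negative siRNA (adjusted p = 0.00737). Within passage 74 alone edgeR did not call SESN1 (adjusted p = 0.213 with TUNAR siRNAs and 0.152 with negative siRNA). Nor did it call WEE1 there with TUNAR siRNAs (adjusted p = 0.346). TP53INP1, a p53 target named after its values were seen, stood at 71.6, 43.5 and 44.1 CPM with TUNAR siRNAs and 1-AKP, against 115, 85.6 and 90.6 CPM with TUNAR siRNAs and DMSO, and at 73.6, 46.5 and 44.6 CPM with negative siRNA and 1-AKP, against 121, 91.9 and 85.6 CPM with negative siRNA and DMSO. Its differences of -0.87 (SE 0.25, adjusted p = 0.0647) and -0.86 (SE 0.25, adjusted p = 0.0718) did not pass, while in replicates 2 and 3 alone it fell by 1.01 with TUNAR siRNAs (adjusted p = 9.30e-11) and by 0.96 with negative siRNA (adjusted p = 2.91e-10). In that subset AEN, also named after its values were seen, rose by 0.42 with negative siRNA (adjusted p = 0.00229) and was at 0.23 with TUNAR siRNAs (adjusted p = 0.0975). Of 15 beta-cell markers, 2 fell with TUNAR siRNAs, the transcription factor genes NKX2-2 and NKX6-1, and these with IAPP fell with negative siRNA (named after their values were seen), and their summed level ran from 24082 to 28749 CPM under 1-AKP and from 25300 to 29362 CPM in DMSO with TUNAR siRNAs, and from 24557 to 27081 CPM under 1-AKP and from 24859 to 28277 CPM in DMSO with negative siRNA. None of the markers of other islet cells, of duct and acinar cells or of stromal, endothelial and blood cells was called with 1-AKP in the fit of group means. In replicates 2 and 3 alone, 6 of the 15 beta-cell markers fell in each comparison; of the markers of other cells, named after their values were seen, DPP4 rose by 0.22 with TUNAR siRNAs (adjusted p = 0.00234) and by 0.31 with negative siRNA (adjusted p = 5.21e-05), and IRX2 fell by 0.23 with negative siRNA (adjusted p = 0.0351). The part of these in the member results was not tested.

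Between TUNAR and negative siRNAs, none of the 10 members was called by edgeR's quasi-likelihood test, in 1-AKP or in DMSO. In 1-AKP no gene of 15990 was called (0.0%, with 743 at an unadjusted p under 0.05, of them 1 member, and 15 called by DESeq2), and in DMSO 0.0125% of genes were called, 2 of 15990 (776 at an unadjusted p under 0.05, of them 2 members, and 21 called by DESeq2, none a member). The member differences ran from -0.22 to 0.08 in 1-AKP and from -0.24 to 0.07 in DMSO. The same fit did not call TUNAR itself, at -1.53 in 1-AKP (SE 0.25, adjusted p = 0.159) and -1.44 in DMSO (SE 0.26, adjusted p = 0.248), so the absence of a call there does not show that a gene stayed the same. In the block fit TUNAR fell by 1.55 in 1-AKP (adjusted p = 0.000674) and by 1.45 in DMSO (adjusted p = 0.00248), and in replicates 2 and 3 alone by 1.36 in 1-AKP (adjusted p = 1.90e-07) and by 1.29 in DMSO (adjusted p = 6.23e-06). CCNE1, CDKN2B, CCND3 and CDK2 lay lower with TUNAR siRNAs in every replicate number of both treatments, and CDKN2C lay higher. The share of all genes with such a pattern is not given here.

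CCNE1 stood at 19.1, 23.2 and 22.4 CPM with TUNAR siRNAs and at 22.8, 24.8 and 26.9 CPM with negative siRNA in 1-AKP, and at 20.8, 24.4 and 21.1 CPM with TUNAR siRNAs and 25.0, 27.0 and 26.4 CPM with negative siRNA in DMSO. The groups overlapped in 1-AKP and not in DMSO. Without a block the log2 differences were -0.20 (SE 0.09, edgeR adjusted p = 1.00) in 1-AKP and -0.24 (SE 0.09, adjusted p = 0.961) in DMSO. With the replicate number as a block, CCNE1 fell in DMSO by 0.24 (SE 0.07, adjusted p = 0.0434), the only member called of 10, where 3.05% of genes were called; in 1-AKP it was at -0.21 (SE 0.07, adjusted p = 0.119).

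CDKN2B stood at 27.4, 25.3 and 26.1 CPM with TUNAR siRNAs and at 31.2, 29.9 and 30.9 CPM with negative siRNA in 1-AKP, without overlap. In DMSO it stood at 30.2, 29.9 and 34.2 CPM with TUNAR siRNAs and at 33.5, 35.4 and 35.9 CPM with negative siRNA, where the ranges overlapped. The log2 differences were -0.22 (SE 0.07, edgeR adjusted p = 0.74) and -0.15 (SE 0.07, adjusted p = 1.00) without a block. With the block, CDKN2B fell in 1-AKP by 0.22 (SE 0.06, adjusted p = 0.0438), again the only member called, where 2.77% of genes were called; in DMSO it was at -0.15 (SE 0.06, adjusted p = 0.194). Both block calls ended in each of the fits that left out 1 replicate number.

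Among the other members, CCND3 lay lower with TUNAR siRNAs in every replicate number, at 86.7, 86.2 and 82.0 CPM against 89.8, 90.9 and 86.6 CPM with negative siRNA in 1-AKP, and at 72.3, 71.5 and 73.9 CPM against 76.8, 75.9 and 78.2 CPM in DMSO. Its differences of -0.07 in 1-AKP and -0.08 in DMSO (SE 0.04 each) did not pass with or without the block. CDK2, at 74.3, 72.1 and 81.2 CPM with TUNAR siRNAs against 76.9, 77.4 and 89.7 CPM with negative siRNA in 1-AKP, and at 66.4, 75.2 and 81.1 CPM against 73.8, 81.1 and 84.6 CPM in DMSO, differed by -0.10 in both (SE 0.09) and did not pass either. CDKN2C lay higher with TUNAR siRNAs in every replicate number, by 0.07 in both treatments (SE 0.09), which did not pass. CDK6 differed by -0.11 in 1-AKP and -0.20 in DMSO (SE 0.15 each), CDK4, CDKN1B and RB1 by at most 0.06, and CDKN1A by 0.08 in 1-AKP and 0.05 in DMSO (SE 0.40 and 0.41). In replicates 2 and 3 alone no member was called in either treatment, against 0.281% of genes in each.

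The response to the siRNAs did not differ detectably between 1-AKP and DMSO for any member. The difference of differences ran from -0.07 to 0.09 on the log2 scale, no member had an unadjusted p under 0.05, and no gene was called (0.0%) by edgeR's quasi-likelihood test, where 170 of the 15990 genes lay under 0.05 before adjustment and DESeq2 also called 0. The siRNA comparison in 1-AKP and that in DMSO share no library, while each of them shares libraries with both 1-AKP comparisons.

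**Figure D4:**
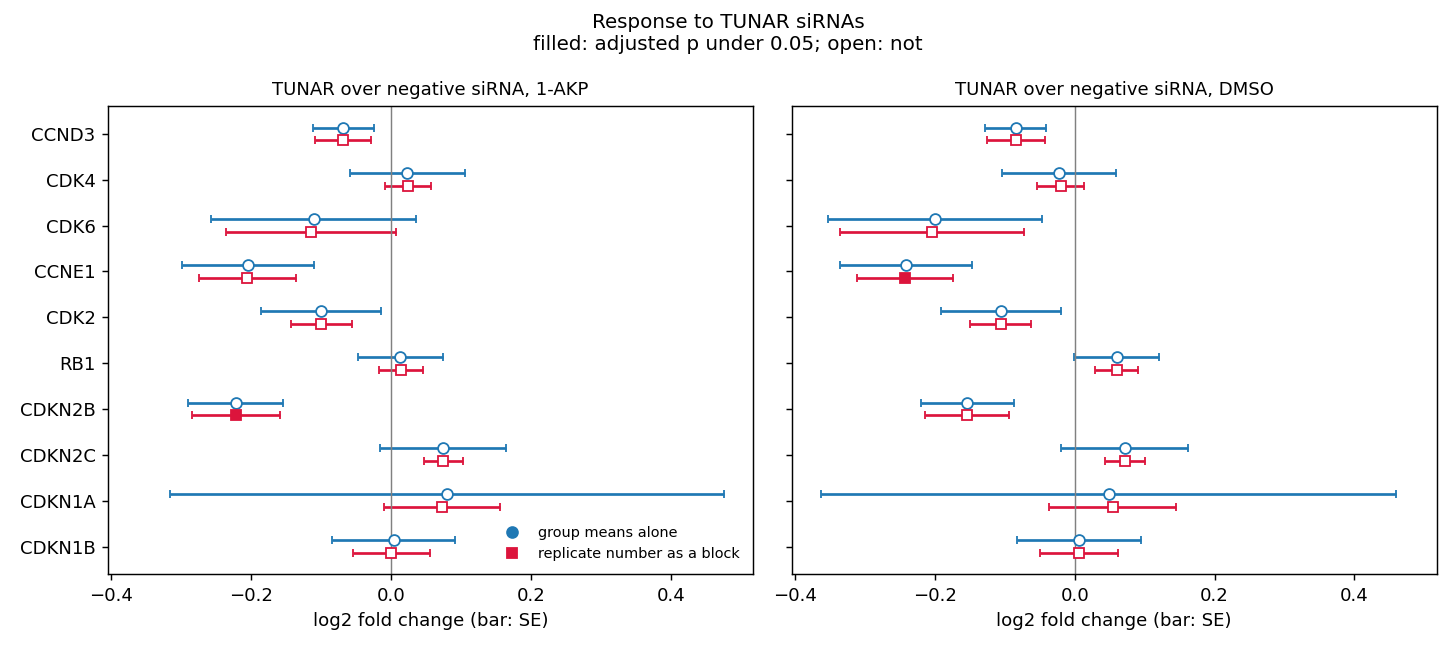
Log2 fold change of TUNAR over negative siRNA with its SE, in 1-AKP (left) and DMSO (right), from the fit of group means (circles) and with replicate number as a block (squares). The squares of CDKN2B in 1-AKP and CCNE1 in DMSO, at -0.22 and -0.24, are the only filled symbols.

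By replicate number, 7 of 10 members were called. In replicate 1, 3 of the 10 rose against replicates 2 and 3 (CDKN1A, CDKN2C and CDKN1B) and 4 fell (CDK4, CCNE1, CDK2 and RB1). The test was edgeR's quasi-likelihood test in a fit with group and replicate number, where 41.5% of all genes were called. The 3 that rose are inhibitors, while the inhibitor CDKN2B was at -0.02. CDKN1C and CDKN2A, inhibitors outside the 10 named after their values were seen, fell. DESeq2 did not call CDKN1B (adjusted p = 0.119) or CCNE1 (adjusted p = 0.0957). CDKN1A averaged 19.3 ± 2.72 CPM in the 4 replicate 1 libraries and 10.2 ± 1.74 CPM in the 8 libraries of replicates 2 and 3 (SD), and lay between 17.0 and 22.7 CPM in replicate 1 and between 8.08 and 12.3 CPM in the others, without overlap. Its log2 difference was 0.92 (SE 0.06, adjusted p = 8.51e-15). CDKN2C averaged 365 ± 25.5 CPM in replicate 1 and 314 ± 20.2 CPM in replicates 2 and 3, a rise of 0.21 (SE 0.02, adjusted p = 1.40e-10). CDKN1B rose by 0.12 (SE 0.04, adjusted p = 0.0254), a call that ended in 4 of 12 fits that left out 1 library, the highest adjusted p being 0.199 without replicate 1 of TUNAR siRNAs with 1-AKP; the other 3 lacked replicate 2 of TUNAR siRNAs with 1-AKP, replicate 2 of TUNAR siRNAs with DMSO, or replicate 3 of negative siRNA with 1-AKP.

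CDK4 averaged 167 ± 20.1 CPM in replicate 1 and 191 ± 20.6 CPM in replicates 2 and 3, and fell by 0.19 (SE 0.02, edgeR adjusted p = 6.33e-08). RB1 averaged 196 ± 8.79 CPM in replicate 1 and 215 ± 9.74 CPM in replicates 2 and 3, and fell by 0.13 (SE 0.02, adjusted p = 2.54e-05). CDK4, RB1 and CCNE1 were lowest in replicate 1 in all 4 groups. CDK2 fell by 0.14 (SE 0.03, adjusted p = 0.000736) and CCNE1 by 0.16 (SE 0.05, adjusted p = 0.0122). The CCNE1 call ended without replicate 1 of TUNAR siRNAs with 1-AKP (adjusted p = 0.0672) and without replicate 1 of negative siRNA with 1-AKP (adjusted p = 0.0529). CCND3, CDK6 and CDKN2B, at 0.01, -0.03 and -0.02, did not pass. CCND3 and CDKN2B, called with 1-AKP, were thus not called by replicate number, and CDKN1A, with the largest member difference by replicate number, was called with 1-AKP in replicates 2 and 3 alone and with the replicate number as a block.

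**Figure D5:**
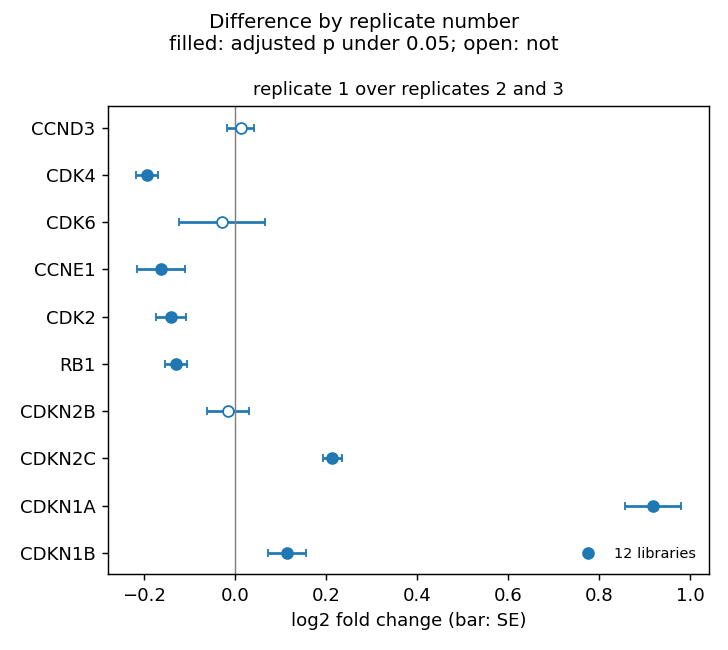
Log2 fold change of replicate 1 over replicates 2 and 3 with its SE, from 12 libraries. CDKN1A lies at 0.92, CDKN2C and CDKN1B above 0, and CDK4, CCNE1, CDK2 and RB1 below it.

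Genes of later cell-cycle phases also differed by replicate number. All 20 mitosis genes rose in replicate 1, with a median log2 difference of 0.58 where the median of all genes was -0.00064, and their summed level was 4121 to 4488 CPM in replicate 1 and 2810.0 to 3145 CPM in replicates 2 and 3. BIRC5, which encodes survivin, averaged 179.6 ± 9.40 CPM in replicate 1 (n = 4) and 101 ± 2.63 CPM in replicate 2 and 105 ± 6.23 CPM in replicate 3 (SD, n = 4 each; log2 difference 0.80, edgeR adjusted p = 1.00e-23). Of the 11 tested other G1 genes, 7 rose, led by the S and G2 regulators CDK1 (0.56, adjusted p = 1.45e-19), CCNA2 (0.58, adjusted p = 7.70e-19), CKS1B and CKS2, and 3 fell, CDKN2A, CDKN1C and CCNE2, which were named after their values were seen. Of the 20 E2F target genes 3 rose (TK1, RRM2 and ORC1, named after their values were seen) and 14 fell, with a median of -0.16; MCM2, a subunit of the replicative helicase, fell by 0.34 (adjusted p = 2.82e-15). Of the 12 pocket proteins, E2F and DP factors 2 rose (RBL1 and RBL2) and 3 fell (TFDP1, E2F5 and, named after its value was seen, E2F1), and of the 16 genes of CDK activation and turnover 4 rose, CDC25B, CDC25C, SKP1 (not called without replicate 1 of TUNAR siRNAs with 1-AKP, adjusted p = 0.0979) and, named after its value was seen, WEE1, and 1 fell, SKP2, which targets p27 for degradation (-0.31, adjusted p = 9.69e-11). Of the 17 tested p53 targets 5 rose and 4 fell, with a median of 0.06, against 0.92 for CDKN1A.

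Markers of cell identity differed by replicate number as well. The summed level of the 15 beta-cell markers was 24082 to 25300 CPM in replicate 1 and 26816 to 29362 CPM in replicates 2 and 3, and 2 of them rose and 12 fell. Of the markers of other islet cells, 5 of 9 passed the filter, of which 3 rose and 1 fell; SST, the somatostatin gene, averaged 29.7 ± 2.55 CPM in replicate 1 and 4.05 ± 0.35 and 5.49 ± 0.79 CPM in replicates 2 and 3. The stromal, endothelial and blood markers summed to 46.6 to 63.3 CPM in replicate 1 and 29.3 to 52.0 CPM in the others, with 3 of 5 tested risen (CD68, COL1A1 and COL3A1, named after their values were seen), and the duct and acinar markers to 72.9 to 78.4 CPM in replicate 1 and 83.4 to 96.2 CPM in the others, with both tested ones fallen. The part of these markers in the member results was not tested. Replicates 1 and 2 share passage 74. Among the markers of other cells, SST, the hormone of delta cells, was the one with the largest log2 difference, at 2.65.

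Replicate 3 and replicate 2, which differ in passage, differed in 1 member: CDK2 rose in replicate 3 by 0.14 (SE 0.04, edgeR adjusted p = 0.0333), where 2.83% of genes were called. CDK2 stood at 81.2, 89.7, 81.1 and 84.6 CPM in replicate 3 and at 72.1, 77.4, 75.2 and 81.1 CPM in replicate 2, in the order TUNAR siRNAs with 1-AKP, negative siRNA with 1-AKP, TUNAR siRNAs with DMSO and negative siRNA with DMSO. The call ended in 7 of the 12 fits that left out 1 library, those without any replicate 2 or 3 library other than replicate 2 of negative siRNA with DMSO, with adjusted p up to 0.205.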

How the data were processed

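Poly(A) RNA of EndoC-βH1 cells was sequenced in 12 libraries on an Illumina instrument, per the labels' protocols. The authors deposited, per the file headers, an expected count and an FPKM value for each gene of each library, with a gene length in bases; genes at 0 were left out by the authors and were set to 0. The submitters' processing notes name RSEM, Bowtie, BWA and the builds GRCh37 and hg19, with no versions or roles. Between 35.3% and 36.0% of the expected counts were not whole, and all were rounded. Because the 12 libraries had nearly the same total, depth was alike for all comparisons.

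Genes were tested with edgeR 4.0.16 (quasi-likelihood, robust, TMM scaling) in R 4.3.3 after a filter at a count minimum of 10 and a total minimum of 15, which kept 15990 genes; p-values were adjusted by Benjamini-Hochberg over all of them at a threshold of 0.05. All adjusted p-values not otherwise named come from this test. CPM levels are counts divided by the TMM-scaled library size. The 4 group means were fitted to 12 libraries, with 8 residual degrees of freedom; replicate numbers were compared in a fit of group and replicate number with 6. For the siRNA comparisons, deviations from the group mean went together in libraries of the same number (correlations of 0.3762, 0.1778 and 0.2171 in DMSO and 0.416, 0.1617 and 0.2865 in 1-AKP, all above 0.1), and the pairing comes from the replicate numbers of the titles; the blocked value stands beside those results. Replicates of a group differed by more than sampling noise (chi-square per degree of freedom 2.37 to 11.9), so each counts once. Alternatives were DESeq2 1.42.0, limma 3.58.1 on log2(FPKM + 0.1) and log2(FPKM + 1), scaling by library size, no filter, passage as a covariate or passage 74 alone, and each library left out; replicates 2 and 3 alone was added after seeing the data. The procedures were tested on simulated data. The members and gene lists were chosen with earlier results of these data known. Among list genes, at most 4 called genes per list and comparison, those with the lowest p, were named; others are said to have been chosen after their values were seen. A list result is not reported here.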

Additional observations from a re-analysis of the deposited data

How the results depend on the processing

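The count of members called moved with the processing as follows. With the replicate number as a block, 1 member was called in each siRNA comparison (0 without), 7 in 1-AKP with TUNAR siRNAs (3 without) and 5 in 1-AKP with negative siRNA (1 without); it changed no other member call in the siRNA comparisons or their interaction. Same-numbered libraries did not meet the pairing rule in the 1-AKP comparisons, since the replicate 2 correlations (0.0634 and 0.0871) lay under 0.1. By that rule the block is only a setting there. The other correlations of these comparisons ran from 0.1588 to 0.4273. The fit of group means counts the difference of replicate 1 as spread. With either siRNA the SE of CDKN1A was 0.40 in that fit and 0.09 with the block. The block called CCND3, CDK4, CDKN1A and CDKN2C as risen and CDKN2B as fallen with either siRNA. With TUNAR siRNAs it also called CDK6 as risen and RB1 as fallen. It also called 9 of 15 beta-cell markers as fallen in each 1-AKP comparison and, among the markers of other cells, DPP4 and CD68 as risen and TTR and CPA1 as fallen in both, and IRX2 as fallen with TUNAR siRNAs (adjusted p = 0.0332). Block fits on replicates 2 and 3, 1 and 3, and 1 and 2 called 6, 5 and 6 members with TUNAR siRNAs and 5, 4 and 4 with negative siRNA; replicates 2 and 3 alone, added after seeing the data, called 6 and 5, and passage 74 alone 0 and 0. With negative siRNA, DESeq2 and passage as a covariate each called 2. Leaving out 1 library gave 1 to 3 members with TUNAR siRNAs, 0 to 2 with negative siRNA, and 0 to 1 for replicate 3 against replicate 2, where DESeq2, limma with either pseudocount, and DMSO or 1-AKP libraries alone each called 0.
Over all genes, the block called 4335 genes in 1-AKP with TUNAR siRNAs (1201 without) and 4285 with negative siRNA (1168 without), 443 for the siRNAs in 1-AKP (0 without) and 488 in DMSO (2 without).
DESeq2 called 15 and 21 genes for the siRNAs in 1-AKP and DMSO and 199 for replicate 3 against replicate 2 (453 by edgeR), where limma called 102 (pseudocount 0.1) and 81 (pseudocount 1), DMSO libraries alone 195 and 1-AKP libraries alone 72. For the siRNAs limma called 2 genes in 1-AKP and 0 in DMSO, and 2 for the interaction; no filter gave 1 in 1-AKP. In 1-AKP libraries alone 4337 genes differed between replicate 1 and replicates 2 and 3 (6630 in all). Leaving out 1 library gave 511 to 1284 genes for 1-AKP with TUNAR siRNAs, 492 to 1389 with negative siRNA and 179 to 686 for replicate 3 against replicate 2. Block fits on pairs of replicate numbers called 2695 to 3978 genes with TUNAR siRNAs and 2706 to 3824 with negative siRNA, 130 to 306 for the siRNAs in 1-AKP and 122 to 327 in DMSO, and 4 to 5 for the interaction.

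The sign turned in 15 small member differences, none of them called; in every case the cause was not tested. CDKN1B for the siRNAs was at -0.0051 (limma, 0.1), -0.0046 (limma, 1), -0.040 (passage 74), -0.045 (replicate block, 1 and 2), -0.052 (block, 2 and 3) and -0.050 (2 and 3 alone) in 1-AKP, and at -0.0018 (library size), -0.0045 and -0.0042 (limma), -0.052 (passage 74) and -0.053 (block, 1 and 2) in DMSO. In the same siRNA comparisons CDK4 in DMSO was at 0.013 (passage 74) and 0.015 (block, 1 and 2), CDK6 in 1-AKP at 0.011 (block, 1 and 3) and RB1 in 1-AKP at -0.0068 (block, 2 and 3, and 2 and 3 alone). For 1-AKP with TUNAR siRNAs, replicates 2 and 3 gave, with the block and alone, 0.0035 and 0.0032 for CCNE1, -0.029 and -0.029 for CDK2, and -0.0063 and -0.0064 for CDKN1B; with negative siRNA, CDK2 was at -0.0041 (passage 74) and -0.0033 (block, 1 and 2). For replicate 1 against the others, CCND3 was at -0.0014 in DMSO libraries, and CDK6 and CDKN2B at 0.018 and 0.064 in 1-AKP libraries.
Leaving out 1 library gave, for the siRNAs in 1-AKP, -0.043 to 0.081 for CDK4, -0.30 to 0.40 for CDKN1A, -0.077 to 0.10 for CDKN1B and -0.036 to 0.060 for RB1, and in DMSO -0.098 to 0.036 for CDK4, -0.33 to 0.49 for CDKN1A and -0.046 to 0.076 for CDKN1B. For 1-AKP with TUNAR siRNAs it gave -0.044 to 0.096 for CDK2, -0.093 to 0.046 for CCNE1 and -0.016 to 0.16 for CDKN1B, and with negative siRNA -0.053 to 0.068 for CDK2. For replicate 1 against the others it gave -0.080 to 0.026 for CDK6 and -0.046 to 0.016 for CDKN2B.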

Other observations

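For each member, the gene whose log2 CPM followed it most closely over the 12 libraries was found among 13761 genes by Pearson's r, given as a description with no p, since the libraries share groups and replicate numbers. AKR1A1 lay nearest to CDK4 (r = 0.990) and SNHG7, a noncoding RNA host of small nucleolar RNAs, nearest to CCND3 (r = 0.979). CENPN, which encodes a centromere protein, lay nearest to CDKN1A (r = 0.983), and UBE2S, which encodes a ubiquitin-conjugating enzyme of mitosis, nearest to CDKN2C (r = 0.970). The others were GPD2 for RB1 (r = 0.977), ATP8B2 for CCNE1 (r = 0.952), CHSY1 for CDK2 (r = 0.934), GUCY1A2 for CDKN1B (r = 0.932), THUMPD2 for CDK6 (r = 0.926) and NOL4L for CDKN2B (r = 0.911).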
